A study of Mus musculus with 3 samples.

Results

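Natural killer (NK) cells of the blood were compared between mice carrying tumor cells for 14 days and naive mice, gene by gene, on the summed transcript counts of each library. The members were the barcodes with 800 to 5000 detected genes, at most 6% mitochondrial counts and at least 90% of their 2 hashtag counts on B0306. That tag was taken as the blood tag, and barcodes within these limits were counted as cells. They numbered 6436, with 4367 from the naive library and 2069 from the 14-day library, out of 21754 cells of 3 libraries and 2 tissues. The 2746 blood cells of the 6 h library and the lung cells of each library are given beside them only where they bear on a blood value.

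Wild-type female mice, 9 weeks old, received 100000 PyMT cells intravenously 14 days or 6 h before sacrifice, and the naive group carries no treatment in the labels. PyMT cells come from a mammary tumor driven by the polyoma middle T antigen, and after injection into a vein they seed the lung. Live CD45+ lineage-negative cells with both NK1.1 and NKp46 on the surface were sorted from lung and blood, hashtagged by tissue and loaded together, so each time point was 1 library. No label ties a cell to a mouse or gives the number of mice in a library. With 1 library a side, time point, animals and library preparation cannot be told apart, no test was possible, and every interval below covers counting error only.

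The summed depth of the blood cells was 29979116 UMIs (unique molecular identifiers, each a captured transcript) in naive, 22077755 at 6 h and 16936897 at 14 days, and the median cell held 6351, 7465 and 7524 UMIs. No blood barcode was shared between the naive and 14-day libraries. The 7 NK markers measured stood at 8700, 8761 and 8613 counts per 1000000 (CPM) in sum, and none of them differed 1.5-fold between naive and 14 days. Ncr1, which encodes the sorted receptor NKp46, was at 1533 CPM in naive, 1526 at 6 h and 1384 at 14 days. Klrb1c, which encodes NK1.1, was at 1292, 1278 and 1319 CPM. Both genes encode proteins used in the sort, so their presence was set by the sort. They do not tell NK cells from other cells that carry both proteins.

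NK cells leave the bone marrow while expressing CD27 and gain the integrin CD11b (Itgam) as they mature, then lose CD27 and acquire KLRG1, CX3CR1 and a large store of granzymes and perforin. T-bet (Tbx21), ZEB2 and BLIMP-1 (Prdm1) drive the late steps, while TCF-1 (Tcf7) and EOMES mark or maintain earlier ones. Circulating NK cells use S1PR5 and CX3CR1 to stay in the blood. Type 1 innate lymphoid cells (ILC1s) share NK1.1 and NKp46 with them but carry CD49a (Itga1), CD127 (Il7r) and CXCR6 and lack EOMES.

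The blood transcriptome differed little in size of ratio between naive and 14 days. Of 6549 genes with at least 20 CPM in 1 of the groups, 47 (0.718%) were at least 1.5-fold higher at 14 days and 180 (2.75%) were at least 1.5-fold lower. Only 3 genes (0.0458%) were 2-fold higher and 5 (0.0763%) were 2-fold lower. The higher ones were Lyz2, Pim2 and Il31ra, and the lower ones Slco3a1, Aff3, Egr1, Fgf13 and Nr4a3; Il31ra and Slco3a1 were named after their values were seen. Apart from the 5% of genes at either end, the log2 ratio of 14 days over naive lay between -0.54 and 0.30, as the plot of ratio against level shows. The same rule called 283 genes higher and 730 lower in the lung cells of these libraries, and 14 higher and 10 lower between naive and 6 h blood.

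**Figure D1:**
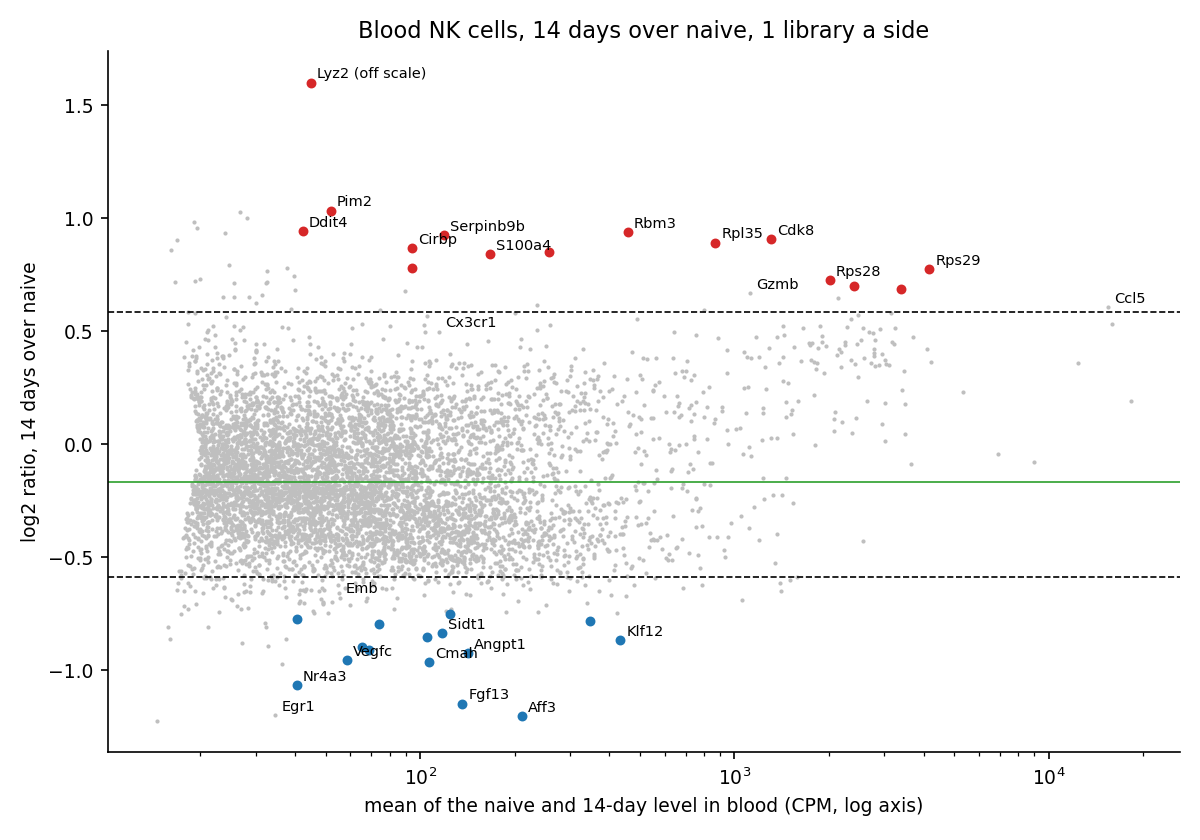
Log2 ratio of 14 days over naive in blood (y axis) against the mean level of the 2 groups in CPM (x axis, log scale) for 6549 genes in grey, with the 15 largest and 15 smallest ratios among genes of at least 50 CPM in red and blue, dashed lines at 1.5-fold and a green line at the median of all genes. Most points lie between -0.54 and 0.30, the median is -0.17, and Lyz2 at 7.22 is off the scale.

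The median ratio of all genes was -0.17. Every ratio is therefore 0.17 greater when read against that median, and a list whose median lies between -0.17 and 0.00 changes sign under that reading. Counted against the median, 139 genes were 1.5-fold higher and 25 lower, so the excess of lower genes turned into an excess of higher ones. Both medians are given below for the lists whose sign depends on the reading.

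The ratio also went with the genomic span of the gene, meaning the length from its first to its last annotated base. In 5 equal groups of genes by span, with median spans of 5.03, 14.8, 29.0, 54.6 and 126 kb, the median ratio was 0.12, -0.04, -0.18, -0.29 and -0.40. The group of longest genes held 126 of the 180 lower genes, and that of the shortest held 33 of the 47 higher genes. The same order was present in lung at 14 days, from 0.07 to -0.38, and in blood at 6 h, from 0.09 to -0.16. Since span moved with the ratio in each of these contrasts, a span-centred ratio is also given below where it ends a call or differs much, which is the ratio minus the median of the genes in the same 1 of 20 equal groups by span. With it, 60 of 6546 genes were 1.5-fold higher and 31 lower, of which 31 and 23 were among those called without it. The part of span in the uncentred ratios was not tested.

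**Figure D2:**
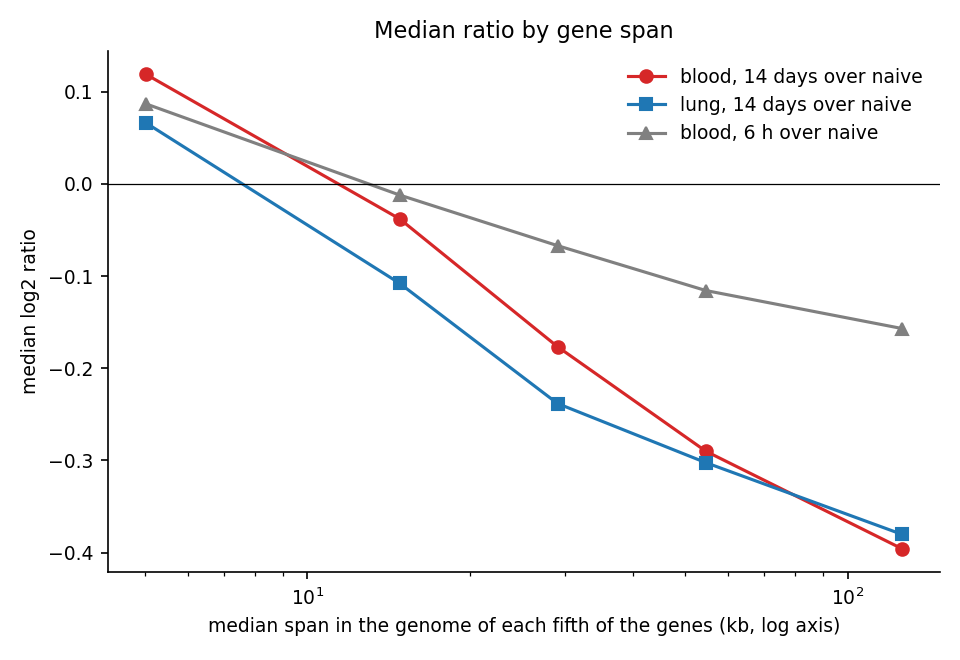
Median log2 ratio (y axis) of genes in 5 equal groups from shortest to longest genomic span (x axis, median span in kb) for blood at 14 days over naive, lung at 14 days over naive and blood at 6 h over naive. The blood 14-day line goes from 0.12 in the shortest to -0.40 in the longest group, and the other lines descend as well, the 6 h line least.

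Ribosomal protein genes were higher at 14 days as a family. All 80 that passed the minimum, of 83 in the files, had a ratio above 0, with a median of 0.41 and a range from 0.03 (Rpl23a) to 0.89 (Rpl35). Their summed level was 135354 CPM in naive, 148467 at 6 h and 183666 at 14 days. Of these 80, 7 passed 1.5-fold (Rpl35, Rps29, Rps28, Rpl38, Rps27, Rpl36 and Rpl36a), beside 0.718% of all genes. After span centring 4 did so, beside 60 of 6546 genes. The family median was 0.26 after span centring, 0.78 in lung at 14 days and 0.14 in blood at 6 h, so the 6 h blood lay between naive and 14 days. Reads of ribosomal protein genes can be split with near-identical pseudogenes, so the single-gene values are uncertain.

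Rpl35, a protein of the large subunit, stood at 608 CPM in naive, 669 at 6 h and 1129 at 14 days, a log2 ratio of 0.89 (95% interval 0.86 to 0.92). Rps29, of the small subunit, stood at 3077, 3473 and 5271 CPM. Rps28 stood at 1516, 1643 and 2507 CPM, and both small-subunit genes had 6 h levels much nearer to naive than to 14 days. Rpl38 stood at 1829, 2000 and 2975 CPM, and Rps27 at 2593, 2701 and 4172 CPM. Per cell, with each cell thinned to 3000 UMIs, the family held a median of 371 UMIs in naive, 405 at 6 h and 513 at 14 days. The quartiles were 299 and 467 in naive and 418 and 630.5 at 14 days, so the interquartile ranges of the cells overlapped.

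Messenger RNAs of ribosomal proteins commonly begin in a pyrimidine tract that couples their translation to growth signals. The bases from 10 before to 20 after the annotated start are shown for 4 of the genes with the greatest ratios in the family, to show how the tract looks where it is present. They are the reference sequence (RefSeq, GRCm38.p6) in the direction of the gene, with each CTTTC in capitals, at chr2:39005112-39005141 on the minus strand for Rpl35, chr11:114668570-114668599 on the plus strand for Rpl38, chr3:90213629-90213658 on the minus strand for Rps27 and chr17:33824543-33824572 on the minus strand for Rps28.
Rpl35: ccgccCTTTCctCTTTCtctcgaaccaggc
Rpl38: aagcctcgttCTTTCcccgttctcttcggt
Rps27: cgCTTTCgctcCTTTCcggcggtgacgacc
Rps28: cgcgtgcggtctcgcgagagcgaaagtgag
Rpl35 and Rps27 hold the 5 letters in 2 copies that do not overlap, Rpl38 in 1 copy, and Rps28 has no match on this strand, the only strand searched. CTTTC lay in this window in 14 of the 60 ribosomal protein genes matched to a start (23.3%). It lay in 216 of 5330 tested genes so matched (4.05%) and in 1197 of the 27025 gene symbols searched (4.43%). A gene counted if any of its starts held a match, and starts in part of the genome were left out of the search. A match describes the letters only, and no value here bears on translation.

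Nuclear genes of oxidative phosphorylation, the respiratory chain and ATP synthase, were slightly higher. Of 77 that passed, 70 had a ratio above 0, with a median of 0.25 (0.16 after span centring) and a range from -0.18 to 0.53. None reached 1.5-fold, beside 0.718% of all genes higher and 2.75% lower. Their sum was 16095 CPM in naive, 18174 at 6 h and 19114 at 14 days. Atp5e, a subunit of ATP synthase, was at 614, 713 and 794 CPM, and Cox4i1, of cytochrome oxidase, at 622, 653 and 763 CPM. The list's 6 h ratio over naive (0.19) was nearly as large as the 14-day one. The 16 mitochondrially encoded genes had a median of 0.03, with 9 above 0. Among them mt-Tc, a transfer RNA, was 1.5-fold higher, beside 0.718% of all genes.

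Both cold-inducible RNA-binding proteins stood among the largest ratios. Rbm3 (chrX:8138975-8145880, GRCm38) was at 314 CPM in naive, 411 at 6 h and 602 at 14 days, a log2 ratio of 0.94 (0.90 to 0.98). Cirbp was at 66.6, 74.6 and 122 CPM, a ratio of 0.87 (0.78 to 0.96). At 3000 UMIs a cell, 57.1% of naive and 79.3% of 14-day cells held an Rbm3 UMI, and 17.6% and 30.3% a Cirbp UMI. In the lung the ratios were 1.15 and 0.72, so both genes were higher at 14 days in both tissues. Cdk8, a kinase of the Mediator complex, was at 910, 1132 and 1709 CPM in blood, and its ratios were 0.91 in blood and 1.00 in lung.

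Granzyme B and CCL5 were higher in 14-day blood, while perforin was level. Gzmb (ENSMUSG00000015437, chr14:56258838-56262260) was at 864 CPM in naive, 1010 at 6 h and 1375 at 14 days, a log2 ratio of 0.67 (0.64 to 0.70) and 0.54 after span centring. At 3000 UMIs a cell, 72.4% (71.0 to 73.7) of naive and 81.5% (79.7 to 83.1) of 14-day cells held a Gzmb UMI. Free RNA in near-empty droplets could put a Gzmb UMI into up to 12.7% of naive and 5.57% of 14-day cells, far under both shares. Gzma, the most abundant granzyme here, was at 10882, 11292 and 13978 CPM (ratio 0.36). Prf1, the pore-forming protein, was at 1220, 1248 and 1235 CPM (0.02), level across the libraries. The lung ratio of Gzmb was 0.19 and that of Gzma -0.26.

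Ccl5, a chemokine stored by cytotoxic lymphocytes (chr11:83525778-83530518), was at 12245 CPM in naive, 12141 at 6 h and 18667 at 14 days, a ratio of 0.61 (0.60 to 0.62). It was level at 6 h and higher at 14 days, its span-centred ratio was 0.48, and its lung ratio was -0.13. Serpinb9b, a serpin of the family that inhibits granzymes (chr13:33027416-33041884), was at 82.1, 86.9 and 156 CPM, a ratio of 0.93 (0.85 to 1.01), with -0.13 in lung. Its UMIs were seen in 14.4% of naive and 22.5% of 14-day cells at 3000 UMIs. Of the 8 chemokine and cytokine genes measured, 3 were above 0. Ccl5 was the only one past 1.5-fold, beside 0.718% of all genes higher and 2.75% lower. Ifng, the interferon of NK cells, had a ratio of -0.35, Ccl3 -0.39 and Ccl4 -0.15 (0.02 against all genes). Xcl1, which attracts cross-presenting dendritic cells, was at 422, 709 and 350 CPM, highest at 6 h. Of the 20 cytotoxicity genes that passed, of 23, 2 were 1.5-fold higher (Gzmb and Serpinb9b), none was lower and 15 were above 0, beside 0.718% and 2.75% of all genes. After span centring Serpinb9b was past 1.5-fold, beside 60 of 6546 genes, and Gzmb was not. Without centring the list had a median of 0.06 in blood and -0.18 in lung.

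The lists of differentiated and less differentiated NK genes follow the study's own description of clusters in these cells, so their directions are not independent evidence. The first did not move one way. Of its 15 genes 1 was 1.5-fold higher (Gzmb) and 1 was lower (Zeb2), beside 0.718% and 2.75% of all genes, and 8 were above 0. After span centring the counts were 1 (Cx3cr1) and 0, beside 60 and 31 of 6546 genes. The list had a median of 0.02 in blood, 0.21 after span centring and -0.74 in lung. Cx3cr1, the fractalkine receptor (chr9:119901616-120069879), was at 95.2 CPM in naive, 85.2 at 6 h and 134 at 14 days, a ratio of 0.50 (0.42 to 0.58). It spans 168 kb, among the long genes that were mostly lower, and its span-centred ratio was 0.91. Its UMIs were seen in 17.8% (16.7 to 19.0) of naive and 22.3% (20.6 to 24.2) of 14-day cells. Ly6c2, a surface marker of mature NK cells, was at 396, 425 and 582 CPM, a ratio of 0.55 (0.51 to 0.59). Klrg1, a receptor of terminal maturity, was at 190, 179 and 216 CPM (0.18). The lung ratios of Cx3cr1 and Ly6c2 were -0.47 and -0.41, opposite in sign to blood.

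Other markers of maturity were lower. Itgam, which encodes CD11b, was at 355 CPM in naive, 290 at 6 h and 263 at 14 days, a ratio of -0.43 (-0.48 to -0.38). Zeb2, a repressor that drives terminal maturation, was at 1900, 1450 and 1264 CPM (-0.59, and -0.55 without the cells that carried at least 2 rare markers of another cell type). Both had smaller ratios after span centring, -0.14 for Itgam and -0.18 for Zeb2. Tbx21 had a ratio of -0.40, S1pr5 of -0.23 and Prdm1 of -0.05 (0.12 against all genes). Per cell at 3000 UMIs the list held a median of 57 UMIs in naive, 57 at 6 h and 66 at 14 days. Gzma alone made up 10882 of the list's 18178 CPM in naive and 13978 of 21088 at 14 days. The per-cell medians therefore follow Gzma more than the other members.

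**Figure D3:**
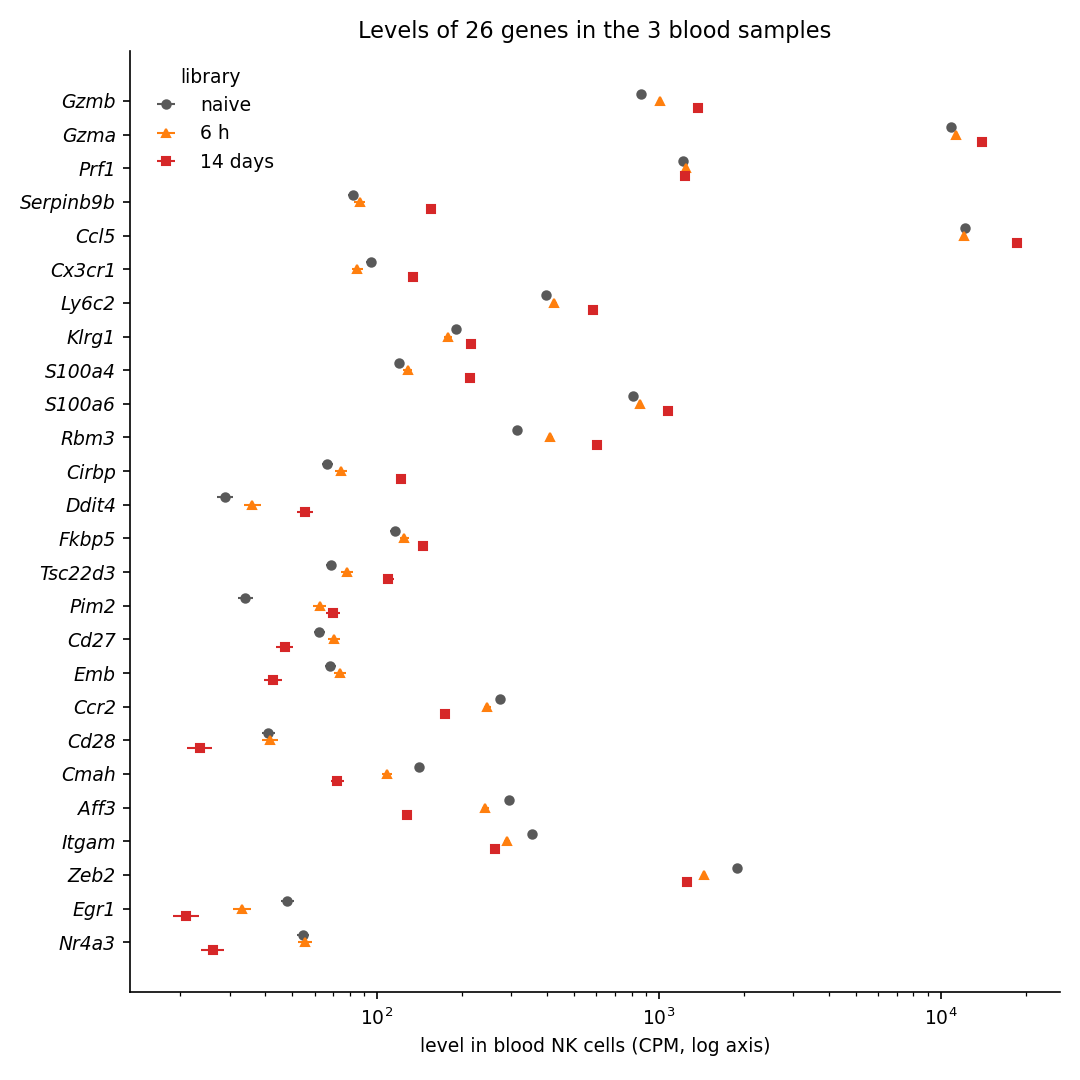
Level in CPM of 26 genes in blood cells of the naive, 6 h and 14-day libraries, with exact Poisson 95% intervals that cover counting error only and 1 library a point. Gzmb, Ccl5 and Rbm3 are highest at 14 days, while Zeb2, Ccr2 and Aff3 are lowest there.

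The genes of less differentiated NK cells mostly had ratios under 0 in 14-day blood. So did most of all genes, whose median was -0.17. Of 15 measured, of 16 in the files, 4 were 1.5-fold lower (Cmah, Cd28, Emb and Ccr2), 2 were higher (Il7r and Cxcr4) and 4 were above 0, beside 2.75% and 0.718% of all genes lower and higher. After span centring 2 were higher and 1 was lower (Ccr2), beside 60 and 31 of 6546 genes. Cmah was then at -0.55, Cd28 at -0.52 and Emb at -0.34. The median was -0.27, which is -0.10 against all genes and -0.35 after span centring, and it was 0.10 in lung. Their sum was 1818 CPM in naive, 2075 at 6 h and 1488 at 14 days. Per cell at 3000 UMIs the median was 4 UMIs in naive, 4 at 6 h and 2 at 14 days, and 11.8%, 12.7% and 17.9% of cells held none.

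Ccr2, the receptor for CCL2 (chr9:124101950-124113557), was at 272 CPM in naive, 246 at 6 h and 175 at 14 days, a ratio of -0.64 (-0.70 to -0.58). Its UMIs were seen in 40.9% of naive and 27.3% of 14-day cells. Emb, an immunoglobulin-family partner of lactate transporters (chr13:117208536-117274415), was at 68.2, 74.0 and 42.6 CPM, a ratio of -0.68 (-0.80 to -0.56). Both were level or nearly so at 6 h and lower at 14 days. Cd27, the receptor that defines the early stages, was at 62.5, 70.2 and 47.0 CPM (-0.41, interval -0.53 to -0.29), and its span-centred ratio was -0.54. Cd28, a costimulatory receptor, was at 41.2, 41.6 and 23.5 CPM (-0.81). Tcf7, the factor of early stages, was at 50.3, 54.8 and 33.7 CPM (-0.58) in blood, against a lung ratio of 0.62. Cxcr3, another receptor of early cells, had a ratio of -0.02, and Thy1 of -0.25.

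The genes of the list with a ratio above 0 were Il7r, Cxcr4, Ltb and Cd7. Il7r, the interleukin-7 receptor, was at 13.2, 18.8 and 25.7 CPM (0.96), Ltb, a ligand of the tumor necrosis factor family, had a ratio of 0.48 and Cd7 of 0.35. These 3 moved with a small set of cells. Without the cells that carried at least 2 rare markers of another cell type, which left 4294 naive and 1968 14-day cells, the ratios were 0.02 for Il7r, -0.09 for Ltb and 0.07 for Cd7. Cxcr4, a receptor for the marrow chemokine CXCL12, was at 14.5, 14.6 and 24.0 CPM (0.72), and its ratio without those cells was 0.79. Il7r and Cxcr4 passed the minimum only through their 14-day level, which favoured their higher calls. The list's median without those cells was -0.42.

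**Figure D4:**
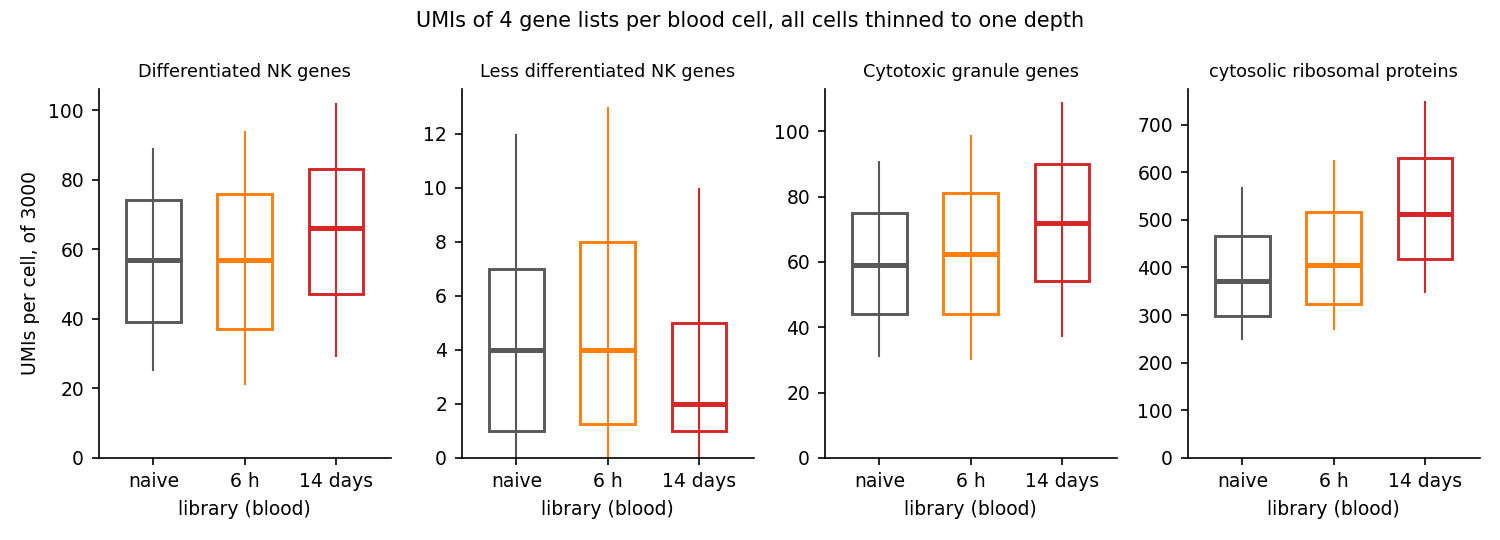
UMIs per cell (y axis) of 4 gene lists in naive, 6 h and 14-day blood cells thinned to 3000 UMIs each, with boxes from the first to the third quartile, a line at the median and whiskers from the 10th to the 90th percentile of cells. Ribosomal protein UMIs have medians of 371, 405 and 513, and less differentiated NK genes of 4, 4 and 2; cells are not replicates.

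The shares of cells by Cd27 and Itgam UMIs were counted at 3000 UMIs a cell. Cells with both were 7.34% (6.58 to 8.16) in naive, 6.49% at 6 h and 3.93% (3.13 to 4.86) at 14 days. Cells with Itgam only were 52.8% (51.3 to 54.3), 47.1% and 45.4% (43.2 to 47.5), and cells with Cd27 only were 7.11%, 8.95% and 7.42%. Cells with neither were 32.7%, 37.5% and 43.3%, and the absence of a UMI at this depth does not show the absence of the transcript. The class with both was thus the one whose share was proportionally most different. Each gene alone was also seen in fewer cells, Cd27 in 14.4% of naive and 11.3% of 14-day cells and Itgam in 60.2% and 49.3%. A class that requires both falls with each of them, so its share does not by itself show a smaller subset.

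Some of the differences were present inside each class, and others were not. Among cells with a Cd27 UMI (620 naive, 234 at 14 days), cells with Itgam and no Cd27 (2268 and 936) and cells with neither (1404 and 893), the Gzmb ratio was 0.75, 0.59 and 0.68. That of Ccl5 was 0.65, 0.62 and 0.60, and that of Ccr2 was -0.73, -0.87 and -0.57. Aff3 was lower in each (-1.26, -1.02 and -1.24), and so was Emb (-1.19, -0.56 and -0.65). S100a4 varied more, at 1.74, 0.82 and 0.55. Sign differed between classes for Itga1 (2.12, -0.18 and 1.00), Ltb (1.26, -1.22 and 0.40), Ccl3 (0.37, -0.40 and -0.55) and Fkbp5 (-0.17, 0.42 and 0.27). Tsc22d3 was 0.23 (-0.24 to 0.69), 0.86 and 0.75, and Cxcr4 0.14, 0.95 and 0.61. Il7r was 1.47, -0.05 and 1.02 in these thinned cells; classed on their full counts, the cells with Itgam and no Cd27 (2642 and 1213) gave -0.44.

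S100a4, a calcium-binding protein linked to motility (chr3:90603771-90606045), was at 119 CPM in naive, 128 at 6 h and 214 at 14 days, a ratio of 0.84 (0.77 to 0.91), and -0.48 in lung. Its relative S100a6 was at 810, 861 and 1080 CPM (0.42), against -0.46 in lung. Lgals3, a galectin, was at 19.4, 25.4 and 31.9 CPM (0.72), and its ratio was 0.51, under 1.5-fold, without the cells carrying rare markers of another type. Of the compared groups it passed the minimum only through 14 days, which favoured its higher call. The other genes of this list of S100, annexin, galectin and related proteins, 19 measured in all, did not reach 1.5-fold. Beside these calls stand 0.718% of all genes higher and 2.75% lower. The list median was -0.01, or 0.16 against all genes, and it was -0.41 in lung. Ly6e, an interferon-inducible surface protein, was at 186, 310 and 285 CPM (0.62), already as high at 6 h, and its ratio without those cells was 0.50. Cd52, a small glycoprotein of lymphocytes, had a ratio of 0.40, and the 4 measured genes of their list had a median of 0.48.

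Receptors of NK cells were mostly level or lower. Of 9 Ly49 (Klra) genes measured, which bind class I molecules and share near-identical sequence, Klra10 and Klra6 were 1.5-fold lower, beside 2.75% of all genes, none was higher, and the median was -0.22. Klra10 was at 48.3, 34.7 and 26.6 CPM (-0.86). Of the compared groups, Klra6 passed the minimum only through naive, which favoured its lower call. Of 8 CD94 and NKG2 genes, Klrc3 was lower, at 82.8, 71.2 and 51.2 CPM (-0.69), again beside 2.75%, and the median was -0.25. Neither the 14 NKR-P1 and other activating receptors nor the 20 adaptors and kinases held a gene past 1.5-fold, beside 0.718% of all genes higher and 2.75% lower. Their medians were -0.15 and -0.23. Read against all genes, the medians of these 4 lists were -0.05, -0.08, 0.02 and -0.06, nearer to 0. Hcst, the DAP10 adaptor of NKG2D, had the greatest ratio of that last list, 0.50. The 3 measured inhibitory checkpoints (Cd96, Vsir and Klrg1) had ratios of -0.30, -0.12 and 0.18.

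Of 10 chemokine and egress receptors measured, of 14, Cxcr4 was higher and Ccr2 and S1pr1 were lower, beside 0.718% and 2.75% of all genes. The median was -0.04, or 0.13 against all genes, and -0.49 in lung. S1pr1, an egress receptor, was at 28.7, 24.6 and 17.2 CPM (-0.74). Of the compared groups, Cxcr4 passed the minimum only through 14 days and S1pr1 only through naive, which favoured both calls. Of 12 integrins measured, of 14, 1 was lower and 1 higher, beside the same shares. Itga4, a subunit of VLA-4, was the lower one, at 1713, 1378 and 1094 CPM (-0.65, and -0.31 after span centring). Itga1 was the higher one, at 16.5, 16.8 and 31.5 CPM (0.94), and its ratio was 0.13 without the cells carrying rare markers of another type. Itga1 passed the minimum only through its 14-day level, which favoured its higher call. It was also the sole gene past 1.5-fold among 12 of the TGF-beta list, whose median was -0.29. The 12 genes of interleukin-12, 18 and 21 signalling had a median of -0.26 and none past 1.5-fold. Both counts stand beside 0.718% of all genes higher and 2.75% lower.

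Targets of the glucocorticoid receptor, which corticosteroid hormones activate, had ratios above 0 in most measured members. Of 9 measured, of 14, 4 were 1.5-fold higher (Ddit4, Il7r, Cxcr4 and Tsc22d3) and 1 was lower (Nr3c1), beside 0.718% and 2.75% of all genes. After span centring 5 were higher and none was lower, beside 60 and 31 of 6546 genes. The median was 0.35 in blood at 14 days, 0.59 after span centring, 0.07 in lung and 0.01 in blood at 6 h. Tsc22d3, which encodes GILZ (chrX:140539528-140600659), was at 68.7, 78.2 and 110 CPM, a ratio of 0.68 (0.59 to 0.77). Ddit4, an inhibitor of mTORC1, was at 29.0, 36.1 and 55.6 CPM, a ratio of 0.94 (0.81 to 1.08). Fkbp5, a chaperone partner of the receptor, was at 115, 125 and 146 CPM (0.34). Nr3c1, the receptor itself, was at 296, 226 and 177 CPM (-0.74, interval -0.80 to -0.68), and its span-centred ratio was -0.35, under 1.5-fold. Il7r and Cxcr4 belong also to the list of less differentiated genes. Both passed the minimum only through their 14-day level, so the minimum itself favoured their higher calls. Without the cells carrying rare markers of another type the list median was 0.32 and the Il7r ratio was 0.02.

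Of 11 genes of interleukin-2 and interleukin-15 signalling measured, of 18, Pim2 and Socs1 were higher, beside 0.718% of all genes. Pim2, a survival kinase, was at 34.1, 62.6 and 69.7 CPM, a ratio of 1.03 (0.91 to 1.16), and 1.36 in lung. Socs1, an inhibitor of cytokine signalling, was at 29.6, 48.5 and 49.6 CPM (0.75), and 0.75 in lung. Both were already near their 14-day level at 6 h, with 6 h ratios of 0.88 and 0.71. The list median was -0.05, or 0.12 against all genes, and Il2rb, the shared receptor chain, had a ratio of 0.12.

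Of the immediate early genes, which are transcribed within minutes of a stimulus, those past 1.5-fold were lower, while the list as a whole was not. Of 20 measured, of 26, none was 1.5-fold higher and 4 were lower (Egr1, Nr4a3, Nr4a1 and Egr3), beside 0.718% and 2.75% of all genes. After span centring 3 were lower, beside 31 of 6546 genes, with Nr4a1 at -0.53. The median was -0.18, or -0.01 against all genes. Egr1 was at 48.1 CPM in naive, 33.2 at 6 h and 21.0 at 14 days, a ratio of -1.20 (-1.37 to -1.03), while its lung ratio was 0.32. Nr4a3, an orphan nuclear receptor (chr4:48045153-48086447), was at 54.8, 55.4 and 26.2 CPM, a ratio of -1.07 (-1.22 to -0.91). Nr4a1, of the same family, was at 44.6, 43.2 and 29.3 CPM (-0.60). Egr3 was at 20.9, 21.2 and 13.9 CPM. Of the compared groups it passed the minimum only through naive, which favoured its lower call. Fos lay under the minimum level, at 12.8, 7.29 and 5.14 CPM. The 5 above 0 included Dusp2 (0.44), Zfp36l2 (0.36) and Jund (0.24).

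The smallest ratios belonged largely to long genes. Aff3, a nuclear protein of the super elongation complex family (ENSMUSG00000037138, chr1:38177326-38664955, 488 kb), was at 294 CPM in naive, 242 at 6 h and 128 at 14 days, a ratio of -1.20 (-1.27 to -1.13). Its span-centred ratio was -0.75, past 1.5-fold as well. Fgf13, an intracellular fibroblast growth factor homolog (506 kb), was at 187, 167 and 84.5 CPM (-1.15). Cmah, the enzyme that makes the sialic acid Neu5Gc (chr13:24327404-24477377), was at 141, 109 and 72.4 CPM (-0.96, and -0.55 after centring). The 15 smallest further held the growth factors Vegfc (-0.95) and Angpt1 (-0.92), along with Dnah8, Pde1c, Klf12, Adamts6, Sidt1, Nedd4l, Ssh2 and Supt3, from -0.91 to -0.77. After span centring Fgf13 (-0.69) and Nr4a3 (-0.81) were also past 1.5-fold, and the genes listed here from Vegfc to Supt3 were between -0.57 and -0.32.

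Of 27 lineage transcription factors measured, of 30, none was higher and Aff3, Bach2 and Zeb2 were lower, beside 2.75% of all genes. After span centring Aff3 was the sole one past 1.5-fold, beside 31 of 6546 genes lower, and the list median of -0.29 was 0.00. Bach2, a repressor that keeps lymphocytes in an early state, was at 529, 450.5 and 316 CPM (-0.75), with a span-centred ratio of -0.29. Eomes, the factor that sets NK cells apart from ILC1s, was at 272, 242 and 191 CPM (-0.51), and as a short gene it kept a span-centred ratio of -0.56. Id2 had a ratio of 0.25 and Klf2 of 0.02, against -1.28 for Klf2 in lung.

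Interferon-stimulated genes had a median ratio in blood near that of all genes. Of 26 measured, of 43, none passed 1.5-fold either way, beside 0.718% of all genes higher and 2.75% lower. At those shares few or no calls would be found among so few genes. The median was -0.15 in blood, or 0.01 against all genes, and 0.43 in lung. Isg15, a ubiquitin-like modifier, had a ratio of 0.52 in blood and 1.28 in lung. Bst2, tetherin, had a ratio of 0.00 in blood and 1.44 in lung. The blood values thus stood apart from those of the lung cells of the same library, with the difference not tested.

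The 21 class I antigen presentation genes had a median of 0.10, glycolysis genes (17 measured, Emb the sole one lower) of 0.04, cell cycle genes (13 of 27) of 0.11 and ribosome biogenesis genes (19) of 0.14. Actin cytoskeleton genes (24) had a median of 0.08, the BCL2 family (10) of 0.05, heat shock genes (12) of -0.18 and NF-kB genes (14) of -0.25. The 8 chemokine and cytokine genes measured had a median of -0.12 (0.05 against all genes) with Ccl5 past 1.5-fold, and the 4 adenosine pathway genes of -0.07 (0.10 against all genes). Apart from Emb and Ccl5, no gene of these lists passed 1.5-fold, beside 0.718% of all genes higher and 2.75% lower. The plot of list medians sets them beside lung and 6 h blood.

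Markers of other cells moved in a few places. Lyz2, lysozyme of myeloid cells, had the greatest ratio of all genes, at 0.600 CPM in naive, 44.9 at 6 h and 89.3 at 14 days. Of its 1512 UMIs at 14 days, 1505 lay in 2 of the 9 cells that held any, and naive had 18 UMIs in 2 cells. Its ratio of 7.22 (6.55 to 7.97) thus rests on 2 cells. S100a9, of neutrophils, was the reverse, with 396 of its 400 naive UMIs in 1 cell and none at 6 h or 14 days. The summed neutrophil markers were at 26.4, 2.81 and 1.36 CPM, the monocyte and macrophage markers at 82.2, 127 and 149, and the B-cell markers at 49.9, 54.2 and 45.1. Lyz2 made up 0.600, 44.9 and 89.3 CPM of the monocyte and macrophage sum, so that sum does not show a rise in the other markers. The endothelial markers were at 68.2, 69.9 and 63.6 CPM, with Cdh5 and Cldn5 at 0, and the platelet markers at 6.90, 7.07 and 8.44. Erythroid markers were at 2.57, 1.90 and 1.48 CPM and epithelial ones at 0.567, 0.453 and 1.18.

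Cells carrying ILC1 markers were more frequent in 14-day blood. The 8 markers summed to 75.9 CPM in naive, 90.8 at 6 h and 157 at 14 days. The 3 that passed the minimum (Itga1, Il7r and Inpp4b) were all 1.5-fold higher, beside 0.718% of all genes. Itga1 and Il7r passed it only through their 14-day level, so the minimum itself favoured a higher call. At 3000 UMIs, 71 of 4292 naive cells (1.65%, 1.29 to 2.08), 53 of 2726 at 6 h (1.94%) and 102 of 2063 at 14 days (4.94%, 4.05 to 5.97) held at least 2 of them. Before thinning the shares were 3.76%, 5.32% and 7.64%. In the lung the thinned share was 1.53% in naive and 10.2% at 14 days. Of these 14-day lung cells, 32.1% held an Eomes UMI, against 45.4% of the rest. Cxcr6, itself 1 of the 8 markers, was seen in 5.26% of them, against 46.1% of such cells in 14-day blood. The lung and blood shares therefore need not count the same kind of cell. Of the 102 cells in 14-day blood, 11.8% held an Eomes UMI against 40.4% of the rest, and 12.7% an Itgam UMI against 51.4%. Klrb1c UMIs were seen in 99.0% of them, and Cd3g, a chain of the T-cell receptor complex, in 32.4% against 1.27% of the rest. Cd3g overall was at 12.8, 13.4 and 25.4 CPM (0.98) and had a ratio of 0.10 without the cells carrying 2 rare markers of another type. Cd3g, too, passed the minimum only through its 14-day level. The T-cell markers together were at 479, 501 and 582 CPM. Without the cells carrying 2 rare markers of another type, 28 of 180 named genes had ratios that moved beyond their counting interval and 152 did not, and 40 genes were 1.5-fold higher and 198 lower.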

How the data were processed

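Sorted NK1.1+NKp46+ cells of lung and blood were profiled as 3 droplet 3' libraries (naive, 6 h, 14 days). The authors deposited unfiltered matrices of raw UMI counts per gene and barcode, which list 1743618 barcodes in naive, 1796296 at 6 h and 1388825 at 14 days. They were made with Cell Ranger (7.0.1 per the labels, 7.1.0 per the file headers) on GRCm38.p6 with GENCODE M23. The labels name Seurat 5.0 for the authors' own downstream work. Whether intronic reads were counted is not given in the sources used here, and that choice can affect long genes most. No replicates exist: 1 library a group.

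Tissue was read from the 2 hashtags, B0304 as lung and B0306 as blood, from the order in which the methods name them. Barcodes with 800 to 5000 genes and at most 6% mitochondrial counts, the study's filter, were kept as cells. No separate cell calling was applied, whereas the study used this filter after Cell Ranger had called cells. No doublet caller was run, and cells with mixed tags were left out. Counts of the 25906 genes in the files were summed per library and tissue and scaled to CPM. Genes with at least 20 CPM in either group were compared by log2 ratio with an exact conditional 95% interval, which covers counting error only. A gene was called at 1.5-fold. Genes near the minimum could pass it only through the group where they were higher, which favours a call in that direction. Sums of 3 counts or fewer were taken as a floor. Shares of cells used cells thinned to 3000 UMIs (75 naive, 20 6 h and 6 14-day cells were shallower and left out), with exact binomial intervals. Free RNA was estimated from barcodes with at most 100 counts and scaled so that markers of other cell types did not exceed their level in the cells, which gave upper limits of 3.51% of the counts in naive, 4.65% at 6 h and 1.29% at 14 days. Positions and spans came from GENCODE M21 on GRCm38 (6546 of 6549 genes), start sequences from RefSeq (60 of 80 ribosomal protein genes matched).

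Named genes were the 15 largest and 15 smallest ratios at 50 CPM or more, list members past 1.5-fold or among the 4 highest of their list, and all genes of the 2 lists of NK maturity, which follow the study's own cluster genes and so are not independent of these cells. The members and lists were chosen with earlier results of these data known. A list of nuclear non-coding RNAs had 1 of 8 genes in the files and none passed. Some genes are not reported here. In simulated counts for the 14-day against naive blood comparison (6471 genes), the interval covered 94.8% of true ratios and all genes changed 2-fold were called. The simulated counts held Poisson counting error only, which is the error that the interval assumes. This coverage therefore does not extend to differences between cells, animals or libraries. Alternatives were other cell filters, tag thresholds, scalings, minimum levels, thinning, free RNA subtraction and cell subsets. Span centring, the reading against the median of all genes, and leaving out the cells with at least 2 rare markers of another type or with most Lyz2 UMIs were added after seeing the data. Software was Python 3.11.15, numpy 2.4.6, scipy 1.17.1, pandas 2.3.3, R 4.3.3 and edgeR 4.0.16 (TMM factors only).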

Additional observations from a re-analysis of the deposited data

Results flagged for a closer look

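Among 176 genes considered, 6 named genes had ratios of opposite sign in blood and lung at 14 days over naive that differed by at least 1 on the log2 scale, also when read against each tissue's median. Both tissues came from the same libraries, 1 a side, and the difference between tissues was not tested. Egr1 was -1.20 in blood and 0.32 in lung, and Tcf7 was -0.58 and 0.62. Ctla2a, an inhibitor of cathepsins, was -0.30 and 1.44, and Xcl1 was -0.27 and 1.67. In the other direction, S100a4 was 0.84 in blood and -0.48 in lung, and Kcnj8, a potassium channel of mature NK cells, was 0.35 and -0.74.

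In 4 lists the medians were of opposite sign and differed by at least 0.3. Differentiated NK genes were at 0.0181 in blood and -0.74 in lung, and less differentiated NK genes at -0.27 and 0.10. Death ligands (3 genes) were at 0.11 and -0.54, and cell cycle genes at 0.11 and -0.34.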

How the results depend on the processing

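No paired analysis was possible because each group holds 1 library. The counts of 47 higher and 180 lower genes depended on the scaling. Totals without mitochondrial and ribosomal protein genes gave 89 and 72 (median -0.0755), median of ratios 107 and 37 (-0.0307), TMM 101 and 41 (-0.0404) and the median of all genes 139 and 25. All 47 higher genes were among those called under these 4 scalings, and of the 180 lower ones 64, 37, 41 and 25. Span centring gave 60 and 31. A minimum of 50 CPM gave 22 and 118 (-0.20), of 10 CPM 77 and 244 (-0.15), and no minimum, over 14448 genes, 1016 and 1380 (-0.13). Leaving out cells with any UMI of another type's marker left 135 and 361 cells, since NK cells themselves express several, and gave 234 and 1012. The other cell filters, tag thresholds, weights, thinning, free RNA subtraction and cell subsets gave 40 to 54 higher and 173 to 259 lower. Of the named genes past 1.5-fold, 3 turned sign under an alternative. Lyz2 was -0.67 with 1000 to 4000 genes and at most 4% mitochondrial counts and -0.53 without the top 5% of cells by UMIs. Among cells with an Itgam and no Cd27 UMI, Il7r was -0.44 and Itga1 -0.0472. Depth limits shares of cells for genes near 1 UMI in 3000.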
